A study of Mus musculus with 82 samples.

Results

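Accessible chromatin that had a peak in every ATAC-seq list, was narrow and lay away from annotated gene ends was described in mouse embryonic fibroblasts during early reprogramming. Whether it was accessible before or between the sampled days was not observed. The 4 deposited ATAC-seq peak lists were merged into 55272 union regions, and 10662 of them (19.3%) formed the set described here. Its members were chosen by measured values: a peak in every list, a merged width under 1500 bp, and a centre more than 1 kb from either end of every RefSeq gene. They made up 48.9% of the 21785 regions present in all 4 lists. Members were between 229 and 1498 bp wide. At the width limit, 111 members were 1400 bp or wider, and 73 regions that met the other criteria lay outside it by less than 100 bp. At the distance limit, 158 members lay 1000 to 1100 bp from a gene end, and 177 regions lay just inside at 900 to 1000 bp.

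The cells were OG2-MEFs at passage 2 that received retroviral Oct4, Sox2, Klf4 and c-Myc (OSKM), in every group. The 4 groups were OSKM with RNase H1(D209N) at day 7 (D209N day 7), OSKM with Flag at day 7 (Flag day 7), and D209N and Flag at day 3, with 2 ATAC-seq samples each and 1 deposited list each. RNase H1 removes the RNA of RNA:DNA hybrids, and D209N is a substitution in its catalytic site that was overexpressed from a retroviral vector beside the cells' own enzyme. The series text names a control, and Flag is read here as that control. The lists held 40452 peaks in D209N day 7, 42439 in Flag day 7, 29189 in D209N day 3 and 36375 in Flag day 3, and read depth is unknown. With 1 list a group there is no replicate error, no condition was tested against another, and Wilson 95% intervals cover counting error only. Cultures at these days hold reprogramming and other cells together, so fewer cells with an open region and less opening per cell cannot be told apart.

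ATAC-seq maps DNA that a transposase can reach. Accessible sites far from gene ends commonly include enhancers, which bind transcription factors and act on promoters over a distance, sites bound by CTCF, and promoters of internal transcripts. In fibroblasts many such sites bind AP-1, TEAD and RUNX factors. In mouse reprogramming OSKM is known to open pluripotency sites and to close fibroblast sites over several days.

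The distance rule used the outer ends of genes, so internal promoters could enter the set. Of the 10293 members on the chromosomes that the RefSeq start table of GRCm38.p6 covers, 936 (9.09%, interval 8.55 to 9.66) held an annotated transcription start, and 917 of these starts belonged to coding genes. Among all distal union regions of any presence the share was 3.66%. It was 105 of 5528 (1.90%) in distal regions gained by day 7 in both arms and 5 of 2379 (0.21%) in those lost in both arms. Such starts lay a median of 5.91 kb inside their gene from its outer 5′ end (quartiles 1.93 and 23.1 kb). The name distal therefore covers a minority of internal promoters.

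The windows below run from 250 bases before to 50 bases after 5 such starts. They are RefSeq sequences on GRCm38.p6, read 5′ to 3′ along the gene, with 1 motif per window in capitals on either strand. The marked motif was chosen for each window, and other motifs counted below also occur in the windows unmarked. The Zeb2 and Fancm windows, for example, also hold GGGCGG, so the marked motifs do not set the windows apart. Dnmt3a encodes a de novo DNA methyltransferase, and in mouse an internal promoter makes its shorter form Dnmt3a2. Its window, chr12:3891494-3891793 on the plus strand, holds 2 GC boxes (GGGCGG, a site of Sp and Klf factors).
Dnmt3a: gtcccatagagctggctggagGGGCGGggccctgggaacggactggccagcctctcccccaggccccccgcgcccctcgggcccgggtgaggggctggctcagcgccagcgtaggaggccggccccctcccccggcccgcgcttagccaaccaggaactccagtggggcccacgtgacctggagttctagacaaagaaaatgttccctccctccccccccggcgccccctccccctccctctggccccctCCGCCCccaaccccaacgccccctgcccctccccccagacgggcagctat
Zeb2 encodes a repressor of epithelial genes, and its window, chr2:45110228-45110527 on the minus strand, holds 2 AP-1 sites (TGANTCA).
Zeb2: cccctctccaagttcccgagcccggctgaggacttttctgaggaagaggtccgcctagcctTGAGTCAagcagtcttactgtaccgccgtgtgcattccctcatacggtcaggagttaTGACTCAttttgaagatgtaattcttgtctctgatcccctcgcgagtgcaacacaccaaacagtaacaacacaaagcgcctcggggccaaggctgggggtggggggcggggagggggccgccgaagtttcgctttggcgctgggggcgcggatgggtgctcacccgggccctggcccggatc
Cald1 encodes the actin-binding protein caldesmon, and its CpG-poor window, chr6:34709194-34709493 on the plus strand, holds 1 AP-1 site.
Cald1: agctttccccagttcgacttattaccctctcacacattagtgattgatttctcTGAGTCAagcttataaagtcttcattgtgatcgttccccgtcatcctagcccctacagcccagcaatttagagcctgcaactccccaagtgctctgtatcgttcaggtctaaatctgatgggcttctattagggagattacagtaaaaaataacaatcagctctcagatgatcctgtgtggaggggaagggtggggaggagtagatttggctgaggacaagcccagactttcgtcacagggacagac
Runx1 encodes a RUNX transcription factor with a distal and a proximal promoter, and the window chr16:92697280-92697579 on the minus strand, 129 kb inside the gene, holds 2 CCAAT boxes.
Runx1: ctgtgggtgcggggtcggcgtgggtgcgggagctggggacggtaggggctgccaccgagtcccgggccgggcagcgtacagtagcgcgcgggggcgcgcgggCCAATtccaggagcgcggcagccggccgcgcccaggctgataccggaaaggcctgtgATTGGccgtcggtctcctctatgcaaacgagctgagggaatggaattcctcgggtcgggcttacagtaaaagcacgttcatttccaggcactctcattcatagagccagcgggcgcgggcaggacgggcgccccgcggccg
Fancm encodes a DNA translocase that acts on RNA:DNA hybrids at forks, and its window, chr12:65075353-65075652 on the plus strand, holds 1 NRF1 site (GCGCATGCG).
Fancm: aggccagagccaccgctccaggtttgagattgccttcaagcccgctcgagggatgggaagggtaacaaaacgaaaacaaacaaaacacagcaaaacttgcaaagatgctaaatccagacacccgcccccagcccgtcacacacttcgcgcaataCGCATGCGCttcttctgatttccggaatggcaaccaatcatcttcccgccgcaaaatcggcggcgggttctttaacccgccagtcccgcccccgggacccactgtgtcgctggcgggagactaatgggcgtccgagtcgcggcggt

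These windows differed widely in base composition. The ratio of observed to expected CpG was 1.05 for Fancm, 1.01 for Runx1, 0.69 for Zeb2, 0.468 for Dnmt3a and 0.302 for Cald1. Over the 936 windows, 1 per region, the median ratio was 0.734 and 69.98% reached 0.6, a level often used for CpG islands. At starts in constitutive gene-end regions, which met the same presence and width limits within 1 kb of a gene end, the median was 0.793 and 78.9% reached 0.6. At starts in distal regions gained in both arms the median was 0.457, and at starts outside every union region it was 0.21. A GC box was found in 66.0% of the member windows and 35.7% of all 32851 windows in the table. The ETS motif (CCGGAAG) was found in 15.5% and 8.86%, and the NRF1 motif in 2.78% and 1.75%. AP-1 was found in 5.34% and 7.81%, and the CCAAT box (CCAAT) in 35.5% and 37.4%. Starts in constitutive gene-end regions were closer to the members than all starts were for the GC box (70.3%), ETS (19.9%) and AP-1 (4.49%), and held NRF1 in 4.31% and CCAAT in 40.7%. Both strands were searched, one window can count for several motifs, and a match is only a run of letters.

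Members were narrower than constitutive gene-end regions in every list. Their median covered length, the base pairs under peaks of a list inside the region, was 556 bp in D209N day 7, 540 bp in Flag day 7, 457 bp in D209N day 3 and 518 bp in Flag day 3. In the 10099 gene-end regions the medians were 816, 811, 625 and 709 bp in the same order. D209N day 3 was the shortest list in both classes. The lowest covered length of a member was 2 bp in D209N day 7, 18 bp in Flag day 7, 1 bp in D209N day 3 and 21 bp in Flag day 3. Whether such short intervals are whole peaks as called is unknown. A single peak in every list made up 10402 members (97.6%). Since the rule limits width and demands presence, these lengths describe the set and support nothing by themselves.

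**Figure D1:**
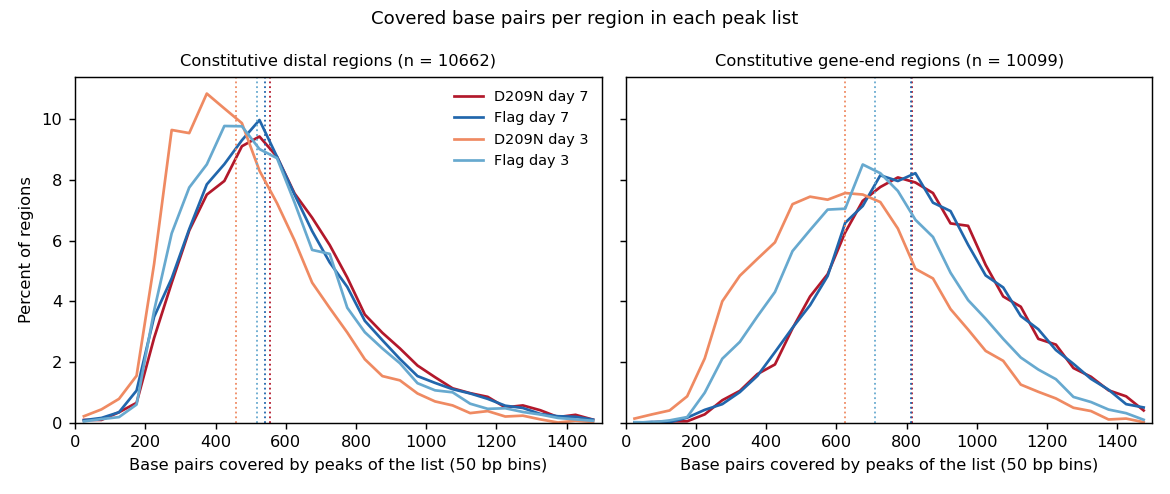
Percent of regions (y axis) by base pairs covered in each peak list (x axis, 50 bp bins), for 10662 constitutive distal regions (left) and 10099 constitutive gene-end regions (right); dotted lines are medians. D209N day 3 lies farthest left in both panels, with medians of 457 and 625 bp.

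The stretch covered by all 4 lists, called the core, had a median of 349 bp, or 55.2% of the region, against 564 bp and 64.7% in gene-end regions. In 133 members (1.247%) no base was shared by all 4 lists, so presence in every list did not mean the same bases. In 181 members (1.70%) the core took up 90% or more of the region. Pairs of lists, over members with a single peak in every list, shared a median of 81.8% of their combined bases between the arms at day 7 and 76.3% at day 3. Between the days they shared 71.4% in D209N and 74.9% in Flag. Gene-end regions shared 89.3%, 80.6%, 75.55% and 82.2% in the same order. Peak edges of members lay a median of 44 bp apart between the arms at day 7 and 54 bp at day 3, and 70 bp apart between days in D209N and 61 bp in Flag.

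The steadiest members of 400 bp or more held nearly the same interval in all lists. The region chr18:90602188-90602637, outside genes, spanned 450 bp with identical edges in all 4. A region of 1403 bp at chr14:19416894-19418296 covered 1403, 1403, 1400 and 1401 bp in D209N day 7, Flag day 7, D209N day 3 and Flag day 3. The others were chr3:149052475-149052932, 23.7 kb from any gene end, and intervals inside Zc3h7a (chr16:11143903-11144313) and Myo3a (chr2:22589601-22590184), each with a core of over 99% of its width. Repeats and regions of artefact signal were not filtered out, and whether these steady intervals are such regions was not tested.

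Between day 7 and day 3 members were wider more often than narrower, and more so in the D209N arm. In the D209N arm, 71.2% of members (interval 70.3 to 72.0) covered more bases at day 7. Of all 24077 regions with a peak in both lists, 77.8% did. At least 1.5-fold wider were 2711 members (25.4%), where 27.8% of all these regions were. In the same arm 681 members (6.39%) were at least 1.5-fold narrower at day 7, where 4.83% of all regions were. In the Flag arm, 57.9% (56.9 to 58.8) covered more bases at day 7, where 66.6% of all regions with a peak in both lists did. There 1517 members (14.2%) were at least 1.5-fold wider and 1245 (11.7%) narrower, where 17.7% and 8.09% of all 27711 regions were. At a limit of 2-fold the order in Flag turned, at 457 wider and 514 narrower. These comparisons rest on 1 list each, and background shares include regions of every width.

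Between the arms, D209N members were shorter at day 3 and close to Flag at day 7. At day 3, 33.4% of members (32.5 to 34.3) covered more bases in D209N than in Flag, where 31.1% of all shared regions did. At that day 505 members (4.74%) were 1.5-fold wider and 1706 (16.0%) narrower in D209N, where 4.07% and 16.8% of all 25878 shared regions were. At day 7, 52.95% (52.0 to 53.9) covered more bases in D209N, where 50.85% of all shared regions did. Then 869 members (8.15%) were 1.5-fold wider and 586 (5.50%) narrower in D209N, where 8.32% and 7.23% of all 34611 shared regions were. The day 3 shares of members thus lay close to the background.

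Most of these shifts ran through all regions of a list. The median ratio over all regions was a log2 of 0.29 for day 7 over day 3 in D209N, 0.14 for the same in Flag, 0.01 for D209N over Flag at day 7 and -0.15 at day 3. Members stood at 0.24, 0.07, 0.02 and -0.14. After division by the median of all regions, 45.4% of members were wider at day 7 in D209N, 43.0% at day 7 in Flag, 52.2% in D209N than in Flag at day 7 and 51.0% at day 3. Relative to all regions, then, more members lay below the day 7 over day 3 median than above it in both arms, the opposite of the direction as listed.

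Members that hold an annotated start were seldom narrower at day 7. As listed, 5 of 936 such members (0.53%) were 1.5-fold narrower at day 7 in D209N and 6 (0.64%) in Flag. Of the 9357 members with no start, 657 (7.02%) were narrower at day 7 in D209N and 1200 (12.8%) in Flag. Gene-end regions, at 0.86% in D209N and 1.83% in Flag, resembled the members with a start. Widening differed less: 30.0% of members with a start and 24.9% of those without were 1.5-fold wider at day 7 in D209N, and 12.0% and 14.45% in Flag. Between the arms at day 7 both directions were rarer with a start, at 1.496% wider and 1.603% narrower in D209N, against 8.81% and 5.95% without.

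**Figure D2:**
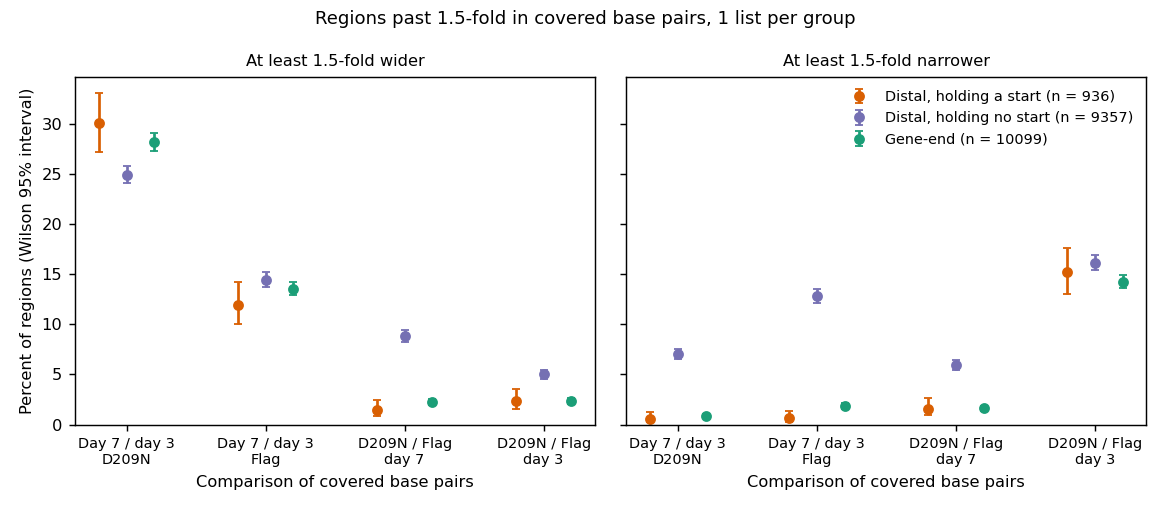
Percent of regions at least 1.5-fold wider (left) or narrower (right), with Wilson 95% intervals, for 936 distal regions holding an annotated start, 9357 holding none and 10099 gene-end regions. In the right panel the members without a start stand apart at day 7 over day 3, at 7.02% in D209N and 12.8% in Flag, while at D209N over Flag at day 3 all 3 sets lie near 15%.

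The day change could be read in the 2 arms separately, since the D209N pair and the Flag pair of lists share no library. Wider by 1.5-fold at day 7 in both arms were 750 members (7.03%), where 7.9% of all regions in 4 lists were. They made up 27.7% of members wider in D209N and 49.4% of those wider in Flag. Narrower in both arms were 326 members (3.06%), where 1.62% of all regions in 4 lists were. They made up 47.9% of members narrower in D209N and 26.2% of those narrower in Flag. Only 24 gene-end regions (0.24%) were narrower in both arms, so members made up most of the 353 such regions. With ratios divided by the median of all regions the order turned, at 345 members wider and 638 narrower in both arms. Across members the log2 day changes of the 2 arms had a Pearson coefficient of 0.34 and a Spearman coefficient of 0.37 (n = 10662 regions of the same 4 lists, as a description).

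**Figure D3:**
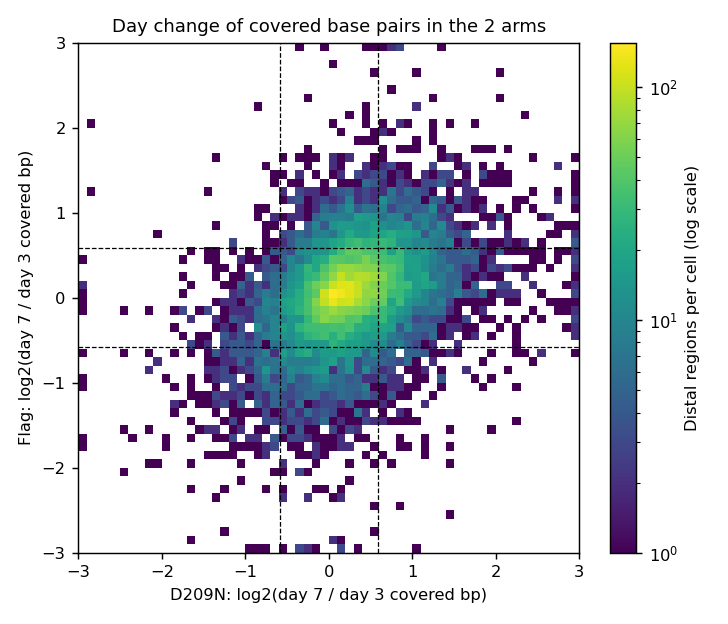
Number of distal regions (colour, log scale) by log2 day 7 over day 3 covered bases in D209N (x axis) and in Flag (y axis); dashed lines mark 1.5-fold, and changes beyond 3 are drawn at the edge. The upper right corner holds 750 regions and the lower left 326.

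None of the 936 members with a start was narrower in both arms, which allows a share of up to 0.321% by counting alone, and 317 of the 9357 without a start (3.39%) were. Members with a start were wider regions, at a median of 881 bp, against 654 bp in those without. Within regions of 900 bp or more the counts were 0 of 449 with a start and 59 of 1467 (4.02%) without. Within 600 to 899 bp they were 0 of 386 and 168 of 4268 (3.94%). Below 600 bp they were 0 of 101 and 90 of 3622 (2.48%). With ratios divided by the median of all regions, 1 of 936 (0.107%) and 615 of 9357 (6.57%) were narrower in both arms. Widening in both arms was found in 75 members with a start (8.01%) and 643 without (6.87%).

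The arm difference was mostly not shared between the days. Of the 586 members narrower in D209N than in Flag at day 7, 116 were also narrower at day 3, or 19.8% of them, where 16.0% of all members were narrower at day 3, and 6.80% of the 1706 narrower at day 3. Of the 869 wider in D209N at day 7, 64 were also wider at day 3, or 7.37% of them, where 4.74% of all members were wider at day 3, and 12.7% of the 505. Another 197 of the 869 (22.7%) were narrower at day 3, where 16.0% of all members were. The shares of these sets narrower or wider at day 3 thus lay above those of all members in the same and in the opposite direction. Across members the 2 arm differences had a Pearson coefficient of -0.02 and a Spearman coefficient of -0.03 (n = 10662 regions).

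Members farther from the nearest gene end were narrower in both arms more often. The distance is to a gene end, and 802 of the 1304 members beyond 50 kb lay inside a gene. From 1 to 2 kb from the nearest gene end, 14 of 1207 members (1.16%) were narrower in both arms. The share was 2.05% from 2 to 5 kb, 2.77% from 5 to 10 kb, 3.33% from 10 to 50 kb and 5.83% (interval 4.68 to 7.23) beyond 50 kb. The share wider in both arms ran the other way, from 9.36% at 1 to 2 kb through 7.80%, 8.01% and 6.23% to 4.91% beyond 50 kb. Among members with no start the narrower shares were 1.44%, 2.36%, 3.14%, 3.56% and 6.02% in the same order of distance. Divided by the median of all regions they were 1.99%, 4.06%, 5.19%, 6.84% and 10.9% for all members.

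**Figure D4:**
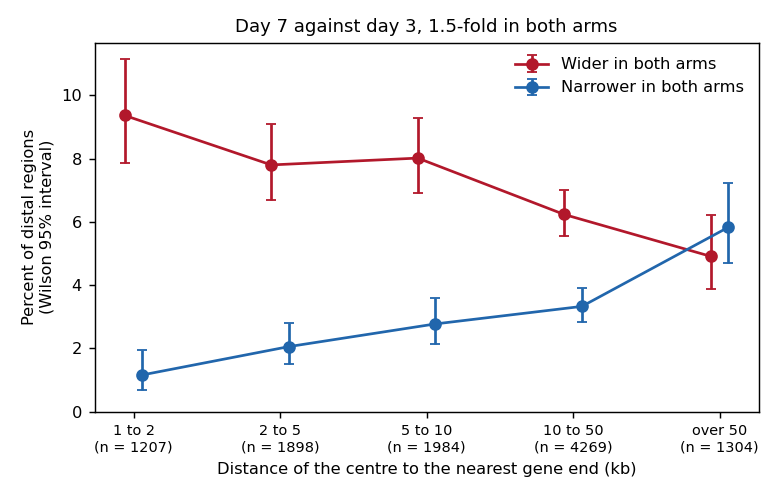
Percent of distal regions at least 1.5-fold wider or narrower at day 7 in both arms (y axis, Wilson 95% intervals) by distance of the centre to the nearest gene end (x axis, kb). The narrower share runs from 1.16% to 5.83% and the wider share from 9.36% to 4.91%.

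Neighbouring regions were counted within 10 kb. Of the members wider in both arms 11.9% (interval 9.74 to 14.4) had a distal region gained in both arms within 10 kb, and of those narrower in both arms 4.60% (2.81 to 7.45), where 9.48% of all members did. A constitutive gene-end region lay near 12.53% of the wider and 5.83% of the narrower, where it did of 11.7% of all members. Another member lay near 15.6% and 12.3%, where it did of 16.7% of all, and a region lost in both arms near 2.80% and 4.60%, where it did of 2.85% of all. The wider members thus lay close to all members in all but gained neighbours. The part of distance to gene ends in these shares was not tested.

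Members lay a median of 10.9 kb from the nearest end of any gene and 22.4 kb from that of a coding gene. Inside genes lay 64.1% of members, against 79.4% of gene-end regions, 61.15% of distal regions gained in both arms and 56.2% of those lost in both arms. Farther than 100 kb from a coding gene end lay 16.4% of members, 11.02% of gained and 34.8% of lost distal regions. By chromosome, members made up between 16.3% of union regions on X and 21.7% on chromosome 6, and chromosome Y held 5.

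The members with the highest and lowest ratios were taken among those with a core of at least 100 bp, and all had short cores, of at most 259 bp. Inside Dnmt3a, chr12:3891164-3892256, which holds the start printed above, covered 1024 bp in D209N day 7, 782 bp in Flag day 7, 102 bp in D209N day 3 and 304 bp in Flag day 3. It was 10.0-fold wider at day 7 in D209N and 2.57-fold in Flag. Inside Rgs3, a regulator of G protein signalling, chr4:62582897-62583857 covered 961 bp, 709 bp, 108 bp and 229 bp in the same order. Both regions were thus narrow in both day 3 lists and wide in both day 7 lists.

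The lowest day ratios in D209N were in Pcdh15, a protocadherin of sensory hair cells, and near Golim4, a Golgi membrane protein. The Pcdh15 region chr10:73341199-73342200 covered 106 bp in D209N day 7, 559 bp in Flag day 7, 958 bp in D209N day 3 and 855 bp in Flag day 3. It also had the lowest ratio of D209N to Flag at day 7, at 0.190. The region 29.4 kb from Golim4, chr3:75985956-75986848, covered 151, 493, 834 and 534 bp. In both, D209N day 7 was the lowest list, which the choice by the lowest D209N day ratio favours.

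In Flag the highest day ratios were at chr1:165844466-165845649, inside Cd247 with its nearest coding end that of Pou2f1 (Oct1), and inside Nfatc2, a calcium-regulated transcription factor. The Cd247 region covered 777 bp in D209N day 7, 1184 bp in Flag day 7, 526 bp in D209N day 3 and 186 bp in Flag day 3. The Nfatc2 region chr2:168532069-168532606 covered 238, 538, 276 and 102 bp, so it was wider in Flag and not in D209N. The lowest day ratios in Flag were inside Fam172a (chr13:77762408-77763175, with 522, 105, 496 and 762 bp) and 3.85 kb from the nearest gene end at chr9:91703272-91704444. That last region, whose nearest coding gene is Zic4 at 315 kb, covered 401, 170, 979 and 1173 bp and was narrower in both arms.

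Between the arms at day 3, the highest ratios were inside Araf, a RAF kinase, and Srgap3. The Araf region chrX:20819279-20820284 covered 1006 bp in D209N day 7, 994 bp in Flag day 7, 901 bp in D209N day 3 and 259 bp in Flag day 3, so Flag day 3 alone was low. The Srgap3 region covered 480, 479, 694 and 203 bp. The lowest were inside Arhgef26, with 484, 549, 102 and 1168 bp, and Abcg1, a cholesterol exporter, with 599, 623, 122 and 910 bp. All 4 regions were alike between the arms at day 7.

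At day 7 the highest ratios of D209N to Flag were inside Fgf14, with 786 bp in D209N day 7, 130 bp in Flag day 7, 366 bp in D209N day 3 and 452 bp in Flag day 3, and in the imprinted Snrpn locus. That region, chr7:60243966-60244621, lies within Snrpn and the long noncoding Snhg14 and covered 587, 114, 481 and 523 bp. Beside Pcdh15, the lowest was inside Clcn3, a chloride transporter, with 125, 612, 418 and 446 bp. In each of these 3 regions a day 7 list was the shortest of the 4, which the choice by day 7 ratio favours.

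Each member was assigned to the coding gene whose end lay nearest to its centre, up to 100 kb away. Of 21883 coding genes, 5680 (26%) had at least 1 member, 3795 had exactly 1, and 156 had 5 or more. Members were assigned to 12 of 16 TEAD and Hippo genes (75%), 20 of 29 mesenchymal regulators (69.0%), 8 of 12 AP-1 factors (66.7%), 11 of 18 actin and SRF targets (61.1%) and 18 of 32 fibroblast matrix genes (56.25%). Pluripotency genes had them in 16 of 36 (44.4%), epithelial genes in 15 of 31 (48.4%), architectural and co-activator genes in 9 of 21 (42.9%), R-loop processing genes in 8 of 23 (34.8%) and housekeeping genes in 5 of 16 (31.25%).

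Lists of other cell types were 9 of 15 for neural (60%), 5 of 10 for endothelial (50.0%), 4 of 12 for macrophage and blood (33.3%), 2 of 9 for keratinocyte (22.2%) and 1 of 10 for muscle genes (10.0%). The number of union regions of any kind assigned to a gene also differed between lists. Coding genes had 2.2 union regions each on average, TEAD and Hippo genes 6.38, mesenchymal regulators 6.07 and AP-1 factors 4.08. As a share of assigned regions, members were 18.6% over all coding genes, 36.7% (18 of 49) at AP-1 factors, 31.4% (32 of 102) at TEAD and Hippo genes, and 30.2% (26 of 86) at actin and SRF targets. The share was 24.8% at both pluripotency and epithelial genes, 23.3% at mesenchymal regulators, 20.5% at fibroblast matrix genes, 20.3% at neural genes and 19% at R-loop genes. It was 23.4% at housekeeping, 22.2% at endothelial, 21.7% at architectural and co-activator, 18.9% at muscle, 17.1% at macrophage and blood and 16.7% at keratinocyte genes.

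**Figure D5:**
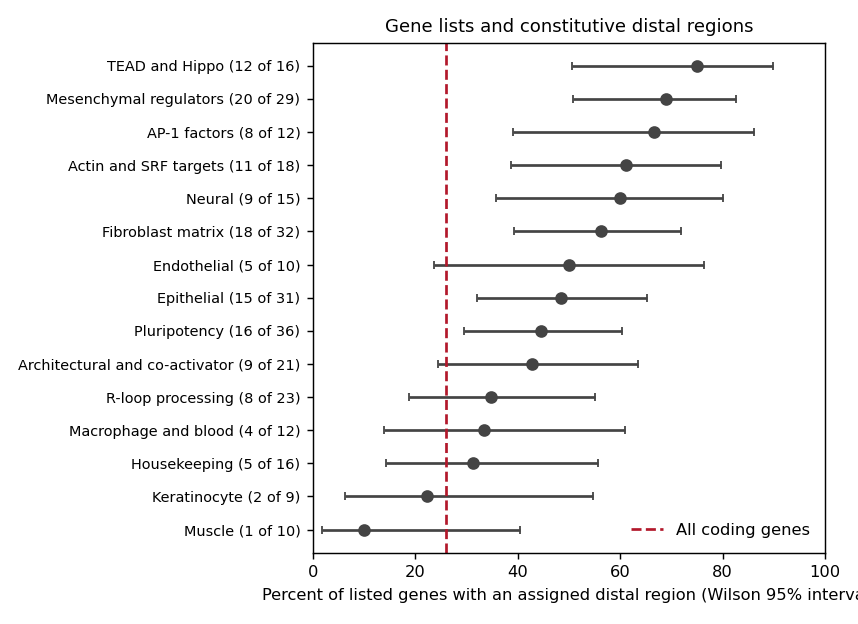
Percent of listed genes with at least 1 assigned constitutive distal region (x axis, Wilson 95% intervals), for 15 gene lists; the dashed line is the 26% of all 21883 coding genes. TEAD and Hippo genes stand at the top with 75% and muscle genes at the bottom with 10.0%.

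Of all 8916 members assigned to a coding gene, 7.46% were wider and 2.49% narrower at day 7 in both arms, and the counts for the lists below are set beside these shares. In lists of 8 to 41 members such counts are small, and no list was tested. Among AP-1 genes, Fos, Fosb, Fosl2 and Jun, which encode leucine zipper factors, had 3 members each. The region chr12:85454969-85455975, 18.4 kb from the nearest Fos end, was close to equal in all lists. It covered 1007 bp in D209N day 7, 914 bp in Flag day 7, 970 bp in D209N day 3 and 919 bp in Flag day 3. The Fos members at 1.55 and 8.8 kb covered 382 and 460 bp in D209N day 3, the lowest list of each. At Fosb, 16.9 kb from its nearest end, chr7:19326455-19327545 covered 1091, 971, 585 and 935 bp, with D209N day 3 the lowest. At Jun, 53.8 kb away, chr4:95105405-95106541 covered 1112, 1098, 977 and 1134 bp. None of the 18 AP-1 members was wider or narrower in both arms, and their median day ratio was 1.31 in D209N and 1.06 in Flag, against 1.20 and 1.07 over all assigned members.

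TEAD factors are the DNA-binding partners of the Hippo effectors Yap1 and Wwtr1. Tead1, Tead4 and Vgll4, the last a competitor of those effectors, had 5 members each, and Amotl2, an inhibitor of Yap1, had 3. The Tead4 region chr6:128275509-128276219 covered 688 bp in D209N day 7, 357 bp in Flag day 7, 286 bp in D209N day 3 and 596 bp in Flag day 3, wider at day 7 in D209N and narrower in Flag. At Vgll4, chr6:114882849-114883636 covered 788, 583, 11 and 260 bp and had no base common to all lists. The Amotl2 region chr9:102689749-102690785 covered 1021, 968, 546 and 717 bp. All 3 Amotl2 members were at least 1.5-fold wider at day 7 in D209N, where 26.7% of all assigned members were. None was in Flag, where 15% of all assigned members were, and their Flag day ratios were 1.35, 1.12 and 1.06. A count of 3 is too small to set the gene apart. Of the 32 members of this list, 3 were wider (9.38%, where 7.46% of all assigned members were) and 2 narrower in both arms (6.25%, where 2.49% were). Ccn1 and Ccn2, with 4 members, belong to this list and to the matrix list below.

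Among mesenchymal regulators, Tcf4 had 6 members, Runx1 5, Cdh2 (N-cadherin) 4 and Zeb2 3. The Runx1 promoter region printed above, chr16:92696849-92697986, covered 1138 bp in D209N day 7, 1057 bp in Flag day 7, 874 bp in D209N day 3 and 1021 bp in Flag day 3. The Zeb2 promoter region, chr2:45109300-45110445, covered 1112, 1142, 375 and 1097 bp, so D209N day 3 alone was short. A Cdh2 region, chr18:16561346-16562132, 27.1 kb from the gene, covered 666, 228, 355 and 787 bp. Of the 41 members of this list, 14 (34.1%) were 1.5-fold wider at day 7 in D209N, where 26.7% of all assigned members were, and 5 (12.2%) in Flag, where 15% were.

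Fibroblast matrix genes were led by Fbn1 (fibrillin) with 5 members, then Ccn1 (a matricellular protein) and Col1a2 (collagen) with 3 each and Col12a1 with 2. The Col1a2 region at chr6:4488188-4488770, 17.1 kb from the gene, covered 522 bp in D209N day 7, 527 bp in Flag day 7, 390 bp in D209N day 3 and 567 bp in Flag day 3. One at chr6:4484031-4484440, 21.4 kb away, covered 263, 128, 369 and 323 bp. The region chr3:145684799-145685486, 35.2 kb from Ccn1, covered 601, 526, 217 and 252 bp and was wider in both arms. It had no base common to all lists. Of 32 members in this list 3 were wider (9.38%) and 1 narrower (3.12%) in both arms, close to the 7.46% and 2.49% of all assigned members.

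Among actin genes, Cald1, Filip1l and Vcl (vinculin) had 4 members each and Actn1 (an actinin) 3. The Cald1 promoter region chr6:34708689-34709878, with the AP-1 site printed above, covered 1171 bp in D209N day 7, 987 bp in Flag day 7, 915 bp in D209N day 3 and 914 bp in Flag day 3. The Filip1l region chr16:57391145-57391694 was steady at 550, 545, 521 and 526 bp. The Actn1 region chr12:80223224-80224084 covered 498, 861, 29 and 503 bp and had no base common to all lists.

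At pluripotency genes, members were found at Tet2 (3), which oxidises methylcytosine, and at Gdf3, a TGF-beta family ligand, and Dppa3, 2 each. The Gdf3 region chr6:122607988-122609056 covered 731 bp in D209N day 7, 877 bp in Flag day 7, 486 bp in D209N day 3 and 585 bp in Flag day 3. The Tet2 region chr3:133515342-133515820 covered 222, 322, 360 and 479 bp, lower at day 7 in both arms. Of the 30 members of the list 1 was wider (3.33%, where 7.46% of all assigned members were) and none narrower in both arms, and 20 of its 36 genes had no member.

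The delivered factors had 9 members between them. Of 2 near Pou5f1, which encodes Oct4, the one inside the gene, chr17:35509113-35509843, covered 522 bp in D209N day 7, 683 bp in Flag day 7, 594 bp in D209N day 3 and 724 bp in Flag day 3. Inside Klf4, chr4:55530066-55530908 covered 766, 795, 597 and 797 bp, and inside Myc, chr15:61987370-61988046 covered 603, 271, 632 and 480 bp. Vector DNA and cellular DNA cannot be told apart for regions inside these genes. The other 3 Myc members lay inside the neighbouring long noncoding Pvt1, among them chr15:62043582-62044099, which covered 438, 445, 262 and 227 bp and was wider in both arms. Sox2 had 1 member 90.8 kb away, with 345, 339, 268 and 312 bp, and Rnaseh1 had none.

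Among epithelial genes, the tight junction gene Tjp1 had 4 members, and Cldn4 (a claudin) and Dsp (desmoplakin) 2 each. The Cldn4 region chr5:134965625-134966777, 19.3 kb from the gene, covered 1135 bp in D209N day 7, 1143 bp in Flag day 7, 534 bp in D209N day 3 and 540 bp in Flag day 3, wider in both arms. A Tjp1 region, chr7:65382096-65383038, covered 541, 116, 487 and 835 bp with no base common to all lists. Of 25 epithelial members 2 were wider (8%, where 7.46% of all assigned members were) and none narrower in both arms. In D209N 9 (36%) were 1.5-fold wider at day 7, where 26.7% of all assigned members were, and 5 (20%) in Flag, where 15% were.

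R-loop processing genes had 1 member each in 8 genes, 4 of them at Ddx21 and Dhx37, which encode RNA helicases, and at Ddx39b, an mRNA export helicase, and Fancm. The Dhx37 region chr5:125426130-125426894 covered 757 bp in D209N day 7, 695 bp in Flag day 7, 504 bp in D209N day 3 and 422 bp in Flag day 3, wider in both arms. The Ddx21 region, at 229 bp the narrowest member, covered 198, 221, 73 and 125 bp. The Fancm promoter region covered 490, 611, 500 and 339 bp, wider at day 7 in Flag. Of the 8, 3 were wider and none narrower in both arms, where 7.46% and 2.49% of all assigned members were, a count too small to set the list apart.

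Among architectural and co-activator genes, Med13l, a Mediator subunit gene, had 5 members, Arid1b 4 and Arid1a 3, both chromatin remodeller subunits, and Stag2, a cohesin subunit, 2. The Arid1a region chr4:133729348-133730259 covered 912 bp in D209N day 7, 769 bp in Flag day 7, 531 bp in D209N day 3 and 545 bp in Flag day 3. An Arid1b region, chr17:5053001-5053695, covered 562, 205, 298 and 464 bp. Among housekeeping genes, Actb and Ywhaz had 3 members each and Eef1a1 1. The Actb region chr5:142905602-142906839, inside the gene, covered 1221, 1228, 1049 and 1057 bp.

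Markers of other cell types also had members. Mef2c, a muscle and neural factor, had 7 and was the sole muscle gene with any, with chr13:83523748-83525066 at 1204 bp in D209N day 7, 1278 bp in Flag day 7, 986 bp in D209N day 3 and 1246 bp in Flag day 3. Tek, an endothelial receptor, had 5 and Cdh5 2, while Kdr and Pecam1 had 1 each. The Kdr region chr5:75861961-75862827 covered 456, 313, 710 and 855 bp and was narrower in both arms. Among neural genes, Map2 had 3 members and Neurod1 2. Cd34 and Vav1 had 2 each, Laptm5 and Ptprc 1 each, and Krt10 and Trp63 1 each. Whether such cells were present was not tested, since accessibility at an assigned gene names no cell type.

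Hrh1, the histamine H1 receptor gene, and Atg7, an autophagy enzyme gene, had 16 members each, the most of all genes. Next came Shroom3, an actin regulator of cell shape, with 11, Abcc4, an efflux transporter, with 10, and Nhsl1 with 9. Nrp2 (a semaphorin and VEGF co-receptor), Fancc, Arid5b, Tenm4 and Lekr1 had 8 each. These were mostly long genes, of 85.4 kb for Hrh1 up to 740 kb for Tenm4. Members made up 16 of 32 union regions at both Hrh1 and Atg7, and 11 of 18 at Shroom3. At Shroom3, chr5:92745755-92746763 covered 990 bp in D209N day 7, 1004 bp in Flag day 7, 924 bp in D209N day 3 and 971 bp in Flag day 3. Of the 8 Nrp2 members, 3 were 1.5-fold wider at day 7 in D209N, where 26.7% of all assigned members were. In Flag 3 of the 8 were narrower, where 884 of all 8916 assigned members were. The region chr1:62859342-62860448, with 707, 339, 429 and 637 bp, met both limits. Counts of 3 of 8 are too small to set the gene apart.

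Members stitched across the gap commonly used to join super-enhancer constituents formed 1050 clusters of 2 or more with 2342 members (22.0%), and 13 clusters held 5 or more. The stretch between Hrh1 and Atg7 gave the next largest clusters after the one described below, chr6:114497142-114548377 with 12 members and chr6:114560899-114614211 with 11. Together these 117 kb held 39 union regions, of which 23 were members, 4 were gained in both arms and none was lost in both. No other 1 Mb interval held as many members as the 37 there, and the next held 22. Within the stretch chr6:114528350-114529077 covered 720 bp in D209N day 7, 690 bp in Flag day 7, 716 bp in D209N day 3 and 691 bp in Flag day 3.

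The largest cluster, chr9:3000046-3035269, lay at the start of the assembled sequence of chromosome 9 and held 14 members among 17 union regions in 35.2 kb. Since repeats and artefact regions were not filtered out, whether this cluster is open chromatin was not tested. The median covered length in the cluster was 532 bp in D209N day 7, 534 bp in Flag day 7, 498 bp in D209N day 3 and 637 bp in Flag day 3. No member of it was wider or narrower in both arms. Without it the members with more covered bases at day 7 were 71.2% in D209N and 57.9% in Flag, those with more in D209N than in Flag were 52.9% at day 7 and 33.4% at day 3, and the counts in both arms stayed 750 and 326.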

How the data were processed

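ATAC-seq peaks of 8 of the 82 samples of the series were used, 2 per group, in 1 deposited list per group. The authors deposited interval starts and ends with names and no score, count or signal, per the file headers and contents. The tools named are CASAVA and Bowtie2 2.3.2 with the builds mm10 and GRCm38.p5, per the submitters' processing notes. The sources used here do not state a peak caller or threshold, any shift of insertion sites, or how replicates were combined, and every peak name carries rep1. Differences in any of these between lists would change peak widths.

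Chromosomes 1 to 19, X and Y were used, and the 3 mitochondrial intervals per list were left out. Regions were merged, annotated and counted in Python 3.11.15 with numpy 2.4.6, pandas 2.3.3 and Wilson intervals from scipy 1.17.1, and the steps were tested on simulated data of 2000 regions. Gene ends, promoter windows and starts came from RefSeq tables of GRCm38.p6, whose start table lacks chromosome 18. A ratio of covered base pairs of 1.5-fold was called, with no test. Named genes were the 10 with most members, up to 4 per gene list by members, the 2 highest and 2 lowest ratios per comparison, the 3 largest clusters, the 5 highest core shares and the delivered factors. The sequences printed were chosen among named regions that hold a start. The members and lists were chosen with earlier results of these data known, and the start windows, the GC box, CCAAT and CRE motifs and the splits by start, width and median centring were added after seeing the data. The RNA-seq, R-loop and CLIP-seq samples were not used here. Some genes that the naming rule chose are not reported here.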

Additional observations from a re-analysis of the deposited data

Results flagged for a closer look

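In 145 members the day change ran opposite ways past 1.5-fold in the 2 arms, wider at day 7 in D209N and narrower in Flag, and in 25 it was narrower in D209N and wider in Flag. These 170 members are 1.59% of all members, where 231 of all 21785 regions in 4 lists (1.06%) ran opposite ways. Among those described above were the Tead4 region chr6:128275509-128276219 and the Nrp2 region chr1:62859342-62860448, both wider in D209N and narrower in Flag. The difference between the arms was not tested, since each arm has 1 list per day. Of the 170, 44 (25.9%) had a core under 100 bp, against 473 of all 10662 members (4.44%).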

How the results depend on the processing

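Of 91 alternatives to the main values, 50 kept the value within its interval or within 1.5 times, 38 moved and 3 reversed. At the lower planned fold limit, members wider and narrower numbered 4618 and 1314 for day 7 over day 3 in D209N, 2981 and 2175 in Flag, 2008 and 1513 for D209N over Flag at day 7, and 1177 and 3466 at day 3. At 2-fold they numbered 1054 and 258, 457 and 514, 266 and 154, and 118 and 583 in the same order, so that in Flag the narrower then outnumbered the wider. In both arms, 1884 were wider and 688 narrower at the lower limit, and 158 and 85 at 2-fold. With ratios divided by the median of all regions, an alternative chosen after seeing the data, the shares with more covered bases reversed to 45.39% in D209N and 43.02% in Flag for day 7, and to 50.98% for D209N over Flag at day 3. The counts were then 1385 wider and 1429 narrower in D209N, 1004 wider and 1680 narrower in Flag, 819 wider and 1138 narrower in D209N than in Flag at day 3, and 345 wider and 638 narrower in both arms. With differences of at least 50 bp alone the shares were 75%, 59.42%, 55.21% and 28.57%. Without members holding a start they were 69.65% and 55.9% for the day changes in D209N and Flag, and 60.64% of members lay inside a gene. Inside coding genes lay 56.85%. With genes assigned within 20 kb, 18.7% of coding genes had a member. With members on autosomes alone it was 25.31% of all coding genes, X and Y genes included. Stitching within 5 kb gave 404 clusters, and 7.792% of members had a start inside the core. The number of members lay between 7557 and 11853 under every alternative definition run. Of 45 alternatives for the gene lists, 41 kept the share within its interval and 4, all assigned within 20 kb, lay below it.

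No paired analysis was possible because each group has 1 list, and no replicate was left out for the same reason. The planned motif shares at region centres were not run, since no genome sequence was used here. Depth is unknown and limits every width, and peak lists give no signal, so a narrower site and a weaker one cannot be told apart.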
